A study of Mus musculus with 3 samples.

Results

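Transcripts of 8 genes of the interleukin 1 family were followed across 3 RNA-seq libraries of RAW264.7 cells, a mouse macrophage line that grew out of a virus-induced tumour. The 8 were taken by gene name from the 26661 genes of the deposited table: the agonists Il1a, Il1b and Il18, the antagonists Il1rn and Il18bp, and the receptor chains Il1r1, Il1r2 and Il1rap. The cells were wild type throughout. One library came from cells in ordinary medium (control) and 1 from cells exposed for 6 h to 0.5 µg/ml of lipopolysaccharide (LPS). The third library had the same exposure after 0.5 h with 10 µM harmine. Harmine is a plant alkaloid that blocks DYRK1A, a kinase, and also monoamine oxidase A, and LPS is a bacterial glycolipid that activates toll-like receptor 4. With a single library in each group there was no replicate check and no test, and every value below compares these 3 libraries. No library had harmine without LPS, so an action of harmine on the LPS response cannot be told apart from one that does not need LPS. The labels give lung as the tissue of the line, and all results come from 1 tumour line.

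Interleukin 1 alpha and beta are inflammatory cytokines that bind the same receptor, encoded by Il1r1, which then recruits the accessory chain encoded by Il1rap and signals through MYD88 and IRAK kinases to NF-kB. This signal is held back in more than one way: Il1rn encodes a receptor antagonist that occupies the receptor without recruiting the accessory chain, and Il1r2 encodes a decoy receptor that lacks a signalling domain. Interleukin 18 is a related cytokine, made as a precursor that caspase-1 cleaves, and Il18bp encodes a secreted protein that binds and neutralises it. In macrophages Il1b is a classic transcript induced by LPS, while the Il18 transcript is known to be present before stimulation.

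The deposited counts summed to between 52845589 and 58169999 per library, and counting error was computed with 4 counts standing for 1 read pair. Of the 10 macrophage markers, 9 stood at 1 FPKM or more in every library (FPKM scales read fragments to transcript length and library size), among them Csf1r, Cd68 and Spi1, and Mertk stood below it. Ranges in brackets are 95% exact intervals that cover counting error only. The labels name no molecular identifiers, so read pairs need not be independent molecules. In bulk RNA, fewer cells that express a gene and less RNA per cell cannot be told apart.

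In control cells the family was low. Il18 led at 6.52 FPKM, followed by Il1rn at 1.42, Il18bp at 1.08, Il1rap at 0.859, Il1b at 0.836 and Il1a at 0.312 FPKM, and Il1r1 and Il1r2 had no counts. From Il1rn down to Il1a, each gene's counting interval overlapped that of the next, so these intervals did not separate neighbours in the order, although the direct ratios of Il1rn to Il1b and of Il1a to Il1b, given further on, excluded 1. With LPS the order was Il1b, Il1a, Il1rn, Il18, Il18bp, Il1rap, Il1r1 and Il1r2, and with harmine plus LPS it was the same except that Il1rap stood above Il18bp. In both of these libraries the intervals of Il18bp and Il1rap overlapped, as did those of Il1r1 and Il1r2. The order of genes also rests on the gene lengths behind the deposited FPKM, which were not checked and which the intervals do not cover. By FPKM, Il1b stood at place 11684 of all genes in control but at place 70 after LPS and at place 182 after both agents.

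**Figure D1:**
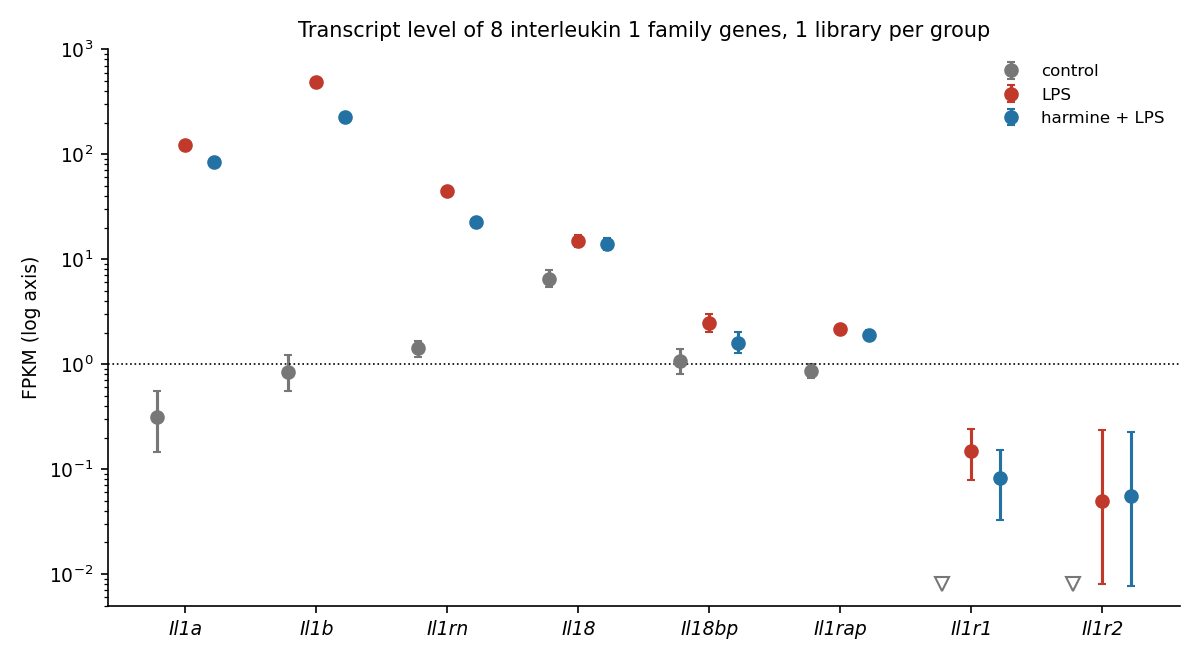
FPKM on a log axis for the 8 genes in control (grey), LPS (red) and harmine plus LPS (blue), 1 library each. Bars are 95% Poisson counting intervals and lie inside the point where they cannot be seen; open triangles mark a count of 0 and the dotted line 1 FPKM. Il1a, Il1b and Il1rn are far apart between control and both LPS libraries, and Il1r1 and Il1r2 stay below 1 FPKM everywhere.

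The first comparison asked what LPS did to these transcripts. Both agonists of the interleukin 1 receptor and its antagonist stood far higher with LPS, Il18 about as much higher as Il18bp and Il1rap, and the receptor genes Il1r1 and Il1r2 stayed at the edge of detection. Il1b, encoding interleukin 1 beta (chromosome 2, 129364570 to 129371139 on mm10, minus strand), had 107 deposited counts in control, 55580 after LPS and 27313 after both agents. Its levels were 0.836, 484 and 224 FPKM in that order, lowest in control and highest with LPS alone, where it was 579.8-fold (395 to 872) above control. On the log2(FPKM + 1) scale the LPS minus control difference was 8.05, rank 1 of the 12197 genes that reached 1 FPKM in any library. Il1a, encoding interleukin 1 alpha (chromosome 2, 129299610 to 129309972, minus strand), had 41, 14666 and 10593 counts, or 0.312, 123 and 83.9 FPKM. It was 396-fold (220.2 to 846) higher with LPS, and its difference of 6.57 log2 ranked 8. The control counts are small, so the size of both folds is known loosely, as these intervals show.

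Il1a and Il1b lie 54.6 kb apart, and 0 of the other compared genes within 100 kb passed 2-fold with LPS on the log2(FPKM + 1) scale, which understates differences of low genes. Ckap2l, a mitotic spindle gene 2.40 kb from Il1a, stood at 21.1, 15.1 and 27.1 FPKM in control, LPS and harmine plus LPS. Slc20a1, a phosphate transporter, stood at 16.6, 20.04 and 15.5 FPKM. Antisense transcripts overlap both cytokine genes. Il1bos, antisense to Il1b, came nearest at 0.997 log2 and stood at 0.0302, 1.06 and 0.534 FPKM, far higher with LPS by plain ratio, and Gm14023, opposite Il1a, at 0.0774, 0.953 and 0.874 FPKM. The labels describe a strand-marking library, but no source used here says whether counting used strand, so reads of each overlapping pair cannot be told apart.

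Il1rn (chromosome 2, 24336853 to 24351494, plus strand) encodes the interleukin 1 receptor antagonist in secreted and intracellular forms. It had 521, 14822 and 7951 counts in the same order, or 1.42, 44.5 and 22.5 FPKM. With LPS it was 31.4-fold (26.4 to 37.8) higher than control, with a difference of 4.24 log2 that ranked 40. The gene has 6 annotated transcripts in GENCODE M21, and the deposited values are per gene, so the secreted and intracellular forms were not separated.

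Il18 (chromosome 9, 50554827 to 50581840, plus strand) had 447, 932 and 915 counts, or 6.52, 15.0 and 13.8 FPKM in control, LPS and harmine plus LPS. It was the one cytokine of the 3 with a clear level before LPS, and with LPS it was 2.30-fold (1.83 to 2.90) higher, a difference of 1.09 log2. Il18bp (chromosome 7, 102014885 to 102018197, minus strand) had 217, 453 and 311 counts, or 1.08, 2.48 and 1.60 FPKM. Its FPKM ratio of LPS to control was 2.31 (1.66 to 3.26), and the difference of 0.75 log2 did not reach 2-fold on the log2(FPKM + 1) scale. Il18bp overlaps Numa1, a spindle protein gene on the other strand, which stood at 30.0, 16.5 and 20.6 FPKM; Il18 likewise overlaps Bco2 and Tex12.

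The receptor chains were scarce. Il1rap (chromosome 16, 26581704 to 26730117, plus strand), the accessory chain, had 648, 1465 and 1381 counts, or 0.859, 2.14 and 1.8995 FPKM. Its ratio of LPS to control was 2.49 (2.06 to 3.01) and its difference 0.76 log2, so it too stayed under 2-fold on that scale. Il1r1 (chromosome 1, 40225080 to 40317257, plus strand), the signalling receptor, had 0, 58 and 34 counts, at most 0.150 FPKM. Set against 3 read pairs (12 counts), the floor used for a count of 0, its measured level was 5.32-fold higher with LPS and 2.94-fold higher with harmine plus LPS. These bounds set its measured level against the floor and leave out counting error on its own few reads. Il1r2 (chromosome 1, 40074079 to 40125231, plus strand), the decoy receptor, had 0, 6 and 7 counts, all under that floor, and no fold was computed. Expression of Il1r2 was not detectable at this depth in any of the libraries by that floor, which in control corresponds to 0.0897 FPKM.

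Counted together, 6 of the 8 genes reached 1 FPKM in some library, and Il1a, Il1b and Il1rap were among them only through the LPS libraries, so these had to be higher there. Of the 6, LPS levels of 4 were higher by 2-fold or more (Il1a, Il1b, Il1rn and Il18) and 0 lower; of all 12197 genes compared, 5.79% were that much higher and 7.21% that much lower. The median difference was 2.66 log2 over the 6 and -0.13 over all genes, a median that upper-quartile rescaling moved to -0.02.

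**Figure D2:**
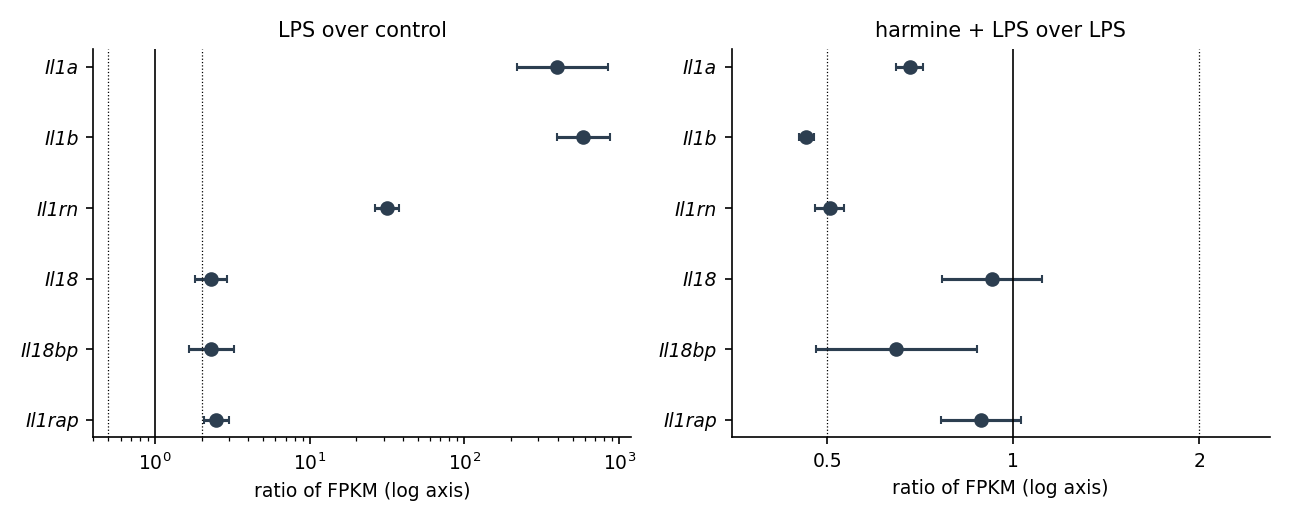
Ratio of FPKM on a log axis for the 6 genes with at least 1 FPKM, LPS over control (left) and harmine plus LPS over LPS (right), with 95% exact counting intervals; solid lines mark a ratio of 1 and dotted lines 2-fold. On the right all 6 points lie below 1, with the intervals of Il18 and Il1rap reaching past it.

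The second comparison asked what harmine ahead of LPS changed. All 6 genes had lower FPKM than with LPS alone, by unequal amounts, and the direction was the same under every alternative scaling tried. Il1b stood at 46.2% of its LPS level, with an FPKM ratio of 0.462 (0.449 to 0.476) and a difference of -1.11 log2, rank 73 from the lowest of 12197. Il1rn stood at 50.5% of its LPS level, with an FPKM ratio of 0.505 (0.478 to 0.533) and a difference of -0.96 log2, just under 2-fold on the log2(FPKM + 1) scale. After median-of-ratios and upper-quartile rescaling of the libraries, Il1rn passed 2-fold, at -1.09 log2 under both. Il1a stood at 68.0% of its LPS level, a ratio of 0.680 (0.646 to 0.715) and -0.55 log2. The Il1a interval lies above those of Il1b and Il1rn, so by counting error alone Il1a stood nearer its LPS level than either.

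Il18bp stood at 64.5% of its LPS level, a ratio of 0.645 (0.480 to 0.873) from 453 and 311 counts. Il18 stood at 92.3%, a ratio of 0.923 (0.767 to 1.11), and Il1rap at 88.7%, a ratio of 0.887 (0.764 to 1.03); both intervals include 1. For Il1r1, with 58 and 34 counts, the ratio of 0.544 (0.193 to 1.35) does not settle a direction. Of the 6 genes, 1 was 2-fold or more lower (Il1b) and 0 higher; of all genes compared, 0.935% were that much lower and 0.664% that much higher. The median difference was -0.49 log2 over the 6 and 0.10 over all genes. Higher genes made up 41.5% of all calls past 2-fold, but 25% after median-of-ratios rescaling and 57.6% by TPM. Rescaling by median of ratios moved the median of all genes from 0.10 to -0.02 log2, and relative to the deposited median Il1b differed by -1.21, Il1rn by -1.06, Il1a by -0.65, Il18bp by -0.52, Il1rap by -0.22 and Il18 by -0.21 log2.

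Against control, the harmine plus LPS library still held far more of the agonists and the antagonist. Il1a was 269-fold (149.6 to 575) and Il1b 268-fold (182 to 403) higher than control. The intervals of the pair overlapped here, as they did with LPS alone. Il1rn was 15.9-fold (13.3 to 19.1) higher. Past 2-fold were 3 of the 6 genes, all higher, beside 5.14% of all genes compared that were higher and 4.86% that were lower. Il1a, Il1b and Il1rap were among the 6 only through the LPS libraries, so their being higher than control was built in here too. Il18, at 0.98 log2, lay just outside, and Il1rap at 0.64 and Il18bp at 0.33 log2 lay further below; with a pseudocount of 0.1 FPKM in place of 1, 5 of the 6 passed. This comparison shares its libraries with the other 2.

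Ratios between genes within a library do not depend on the scaling between libraries, and FPKM is per length. The size of each ratio rests on the gene lengths behind the deposited FPKM. These lengths were not checked, and the intervals do not cover them. Of the 5 ratios computed, that of Il1rn to Il1b differed most between LPS and control. The antagonist Il1rn stood above Il1b in control, at an FPKM ratio of 1.69 (1.10 to 2.64). With LPS the ratio of Il1rn to Il1b was 0.0919 (0.0886 to 0.0953) and in the harmine library 0.1002 (0.0953 to 0.105), so Il1b stood 10.9-fold and 9.98-fold above the antagonist. The ratio was thus 18.4-fold lower with LPS than in control, and 1.09-fold higher with harmine plus LPS than with LPS alone, with intervals that lay just apart. Set against the sum of Il1a and Il1b, Il1rn was at 1.23, 0.0732 and 0.0729 in the 3 libraries in the same order. The antagonist's share of these transcripts was therefore nearly the same in both LPS libraries, although each transcript was lower with harmine.

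The balance between the agonists did differ. Il1a stood at 0.255 (0.246 to 0.264) of Il1b with LPS and at 0.375 (0.358 to 0.392) with harmine plus LPS, 1.47-fold higher. In control the ratio was 0.374, with a wide interval (0.156 to 0.770) that takes in both. Il1rn to Il1a went the other way between the LPS libraries, from 0.360 (0.344 to 0.377) to 0.268 (0.252 to 0.284). Il18bp to Il18 was 0.165 in both control and LPS cells and 0.116 when harmine was added, and the intervals of the 3 libraries overlapped.

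**Figure D3:**
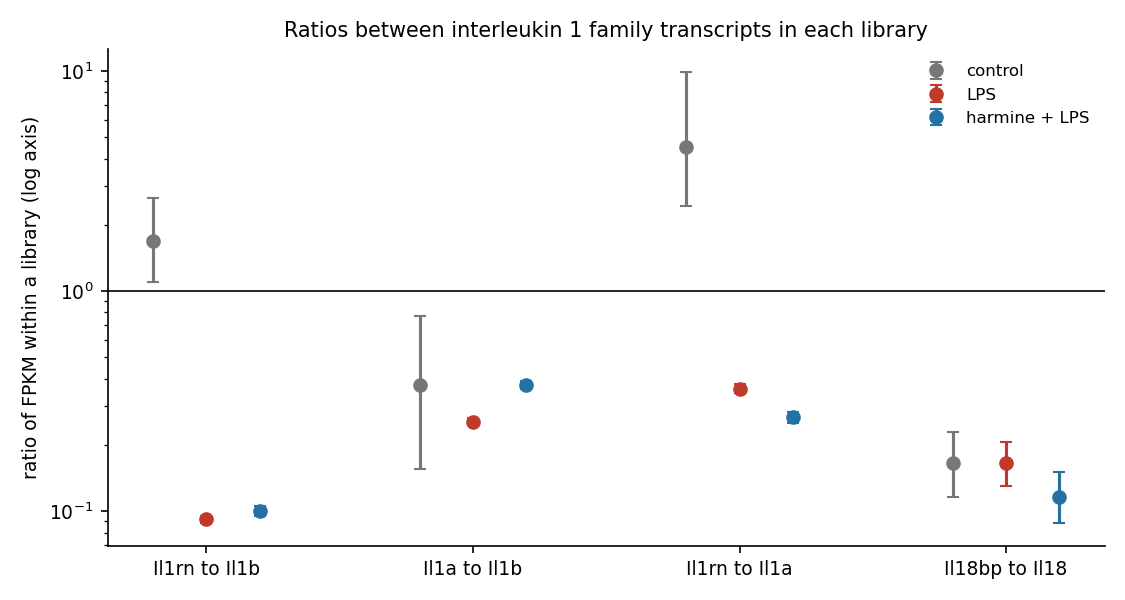
Ratio of FPKM between pairs of genes within each library on a log axis, with 95% exact counting intervals, in control (grey), LPS (red) and harmine plus LPS (blue). The ratios of Il1rn to Il1b and to Il1a are above 1 in control and below 1 in both LPS libraries, and Il1a to Il1b is 0.255 with LPS and 0.375 with harmine plus LPS.

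Genes of like pattern were sought for the 4 members with at least 10 FPKM, among 4694 other protein-coding genes at that level. Likeness was the distance between pairs of differences (LPS minus control and harmine plus LPS minus LPS, in log2), and so rests on 3 libraries. Nearest to Il1a were Ccl22 (distance 0.29), a chemokine at 0.330, 132 and 74.0 FPKM, then Ptgs2 (0.46), the inducible cyclooxygenase, and the chemokine Ccl3 (0.52). With harmine plus LPS minus LPS, these stood at -0.83, -0.86 and -1.07 log2, each further below LPS than Il1a at -0.55 log2. Nearest to Il1b were Acod1 (0.65), which makes itaconate, the chemokine Cxcl2 (1.07) and Ptgs2 (1.16). Il1b stood 1.58 from Il1a and 3.81 from Il1rn. Close to Il1rn were Oasl1 (0.03) and Mx2 (0.05), both interferon-stimulated genes, and Ccrl2 (0.06), a chemoattractant-binding receptor. These distances are on the log2(FPKM + 1) scale, where genes low in control can lie close although their plain ratios of LPS to control differ widely. Ccrl2 stood at 0.0889, 19.0 and 9.71 FPKM, beside 1.42, 44.5 and 22.5 for Il1rn. Oasl1 stood at 10.7, 221 and 111 FPKM and Mx2 at 0.255, 22.3 and 11.4 FPKM. Near Il18 were Polr3d (0.03), Mafk (0.03) and Tob2 (0.06), with Mafk, a small MAF factor, at 6.50, 15.1 and 14.2 FPKM.

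The promoters of the 3 members with the highest LPS to control ratios are shown because their transcripts were high together with LPS and lower by different amounts with harmine. Each line gives the 250 bases before a RefSeq transcript start on GRCm38.p6, the build mm10 is drawn from, 5′ to 3′ on the gene's strand, with matches to 5 searched motifs in capitals. The windows are chr2:129309973-129310222 (minus strand) for Il1a, chr2:129371140-129371389 (minus) for Il1b, chr2:24336610-24336859 (plus) for the upstream start of Il1rn and chr2:24345121-24345370 (plus) for a downstream start. The bases just after these starts were found in annotated transcripts of the same gene, in 3 of the 6 Il1rn transcripts for the upstream start and 2 for the downstream one.
Il1a: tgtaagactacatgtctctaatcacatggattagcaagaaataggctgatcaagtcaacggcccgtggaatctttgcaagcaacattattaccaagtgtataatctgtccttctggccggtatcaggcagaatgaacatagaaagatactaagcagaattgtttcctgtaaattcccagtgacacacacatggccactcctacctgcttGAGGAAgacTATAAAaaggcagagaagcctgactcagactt
Il1b: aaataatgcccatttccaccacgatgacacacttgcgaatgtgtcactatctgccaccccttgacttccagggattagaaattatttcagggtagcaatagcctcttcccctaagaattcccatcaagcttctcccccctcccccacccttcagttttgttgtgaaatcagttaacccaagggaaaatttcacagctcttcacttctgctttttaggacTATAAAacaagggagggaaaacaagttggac
Il1rn upstream: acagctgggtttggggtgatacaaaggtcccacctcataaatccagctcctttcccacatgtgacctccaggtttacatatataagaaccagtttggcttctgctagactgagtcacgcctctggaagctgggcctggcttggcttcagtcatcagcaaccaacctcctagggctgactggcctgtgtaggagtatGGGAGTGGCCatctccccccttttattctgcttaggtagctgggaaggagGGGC
Il1rn downstream: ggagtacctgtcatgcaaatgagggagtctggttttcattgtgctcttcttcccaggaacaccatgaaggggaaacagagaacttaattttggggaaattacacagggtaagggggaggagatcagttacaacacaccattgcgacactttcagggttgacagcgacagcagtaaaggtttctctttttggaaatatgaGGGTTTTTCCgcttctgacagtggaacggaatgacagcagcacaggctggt

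The motifs were NF-kB as GGG and CC with 5 bases of any kind between them, C/EBP as TTGCNNAA, PU.1 as GAGGAA, an interferon response element as GAAA repeated after 2 bases of any kind, and the TATA box as TATAAA. Both strands were searched from 250 bases before to 50 after each start, and overlapping matches were each counted. Il1a held TATAAA from 32 and Il1b from 31 bases before the start, a match found in 13.6% of the 32851 mouse windows, and Il1a also held GAGGAA from 41 bases before it, found in 28.3%. The upstream Il1rn window held 2 NF-kB matches, 1 of which runs across the start and is shown only in part. The downstream window held GGGTTTTTCC from 51 bases before the start, and a TATA match on the opposite strand after it. The NF-kB letters are loose and occur in 50.8% of windows. The window of Il1rap held 9 such matches on both strands, several of them the same bases read both ways, and 1 interferon response match (3.44% of windows). C/EBP letters, found in 10.8% of windows, were in that of Il18bp and in 1 of 2 for Il1r1. The Il18 window had a TATA match on the opposite strand, but the bases after its start were in 0 of the annotated Il18 transcripts, and that of Il1r2 had none of the motifs. A match describes letters and is not evidence of binding.

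**Figure D4:**
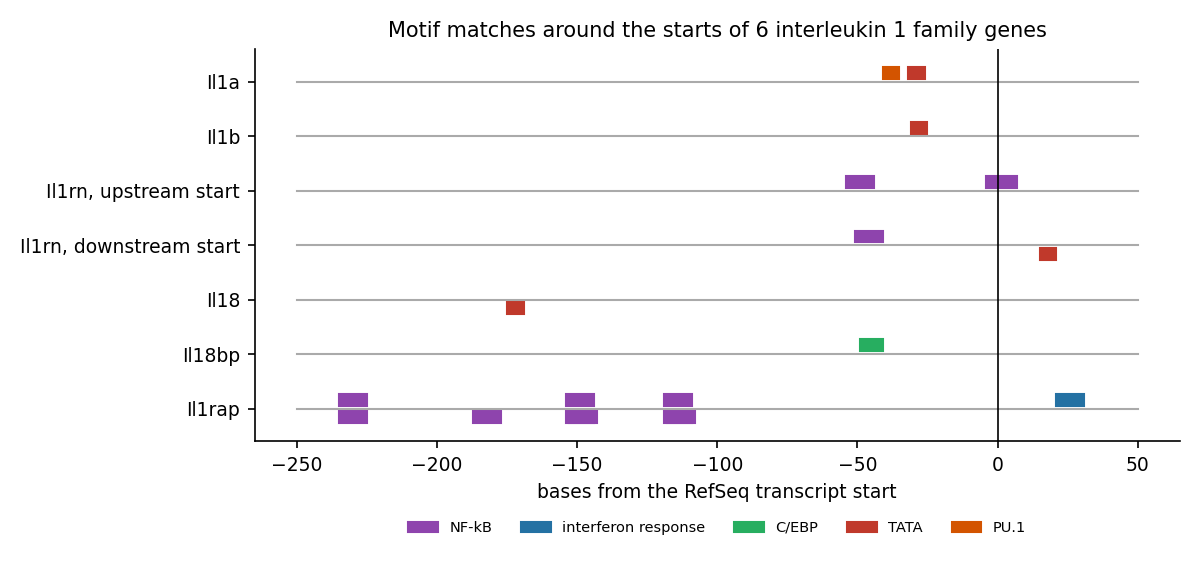
Motif matches from 250 bases before to 50 after the RefSeq start of 6 genes, by distance from the start in bases, with matches on the gene's strand above each line and on the opposite strand below it. Il1a and Il1b each have a TATA match about 30 bases before the start, and the matches of Il1rap are mostly NF-kB letters.

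The other genes of the pathway were read from 4 lists, and their counts stand beside the shares of all compared genes given above: with LPS 5.79% were 2-fold higher and 7.21% lower, and with harmine added to LPS 0.664% were higher and 0.935% lower. Of 13 further family ligands and receptors, 10 were in the table and 3 reached 1 FPKM, of which 1 was 2-fold or more lower with LPS and 0 higher (median -0.88 log2, beside -0.13 over all genes). Sigirr, an inhibitory receptor of the family, stood at 2.41, 0.336 and 0.648 FPKM. Il18rap, the accessory chain for interleukin 18, stood at 5.74, 2.68 and 3.82 FPKM, while its partner Il18r1 was at most 0.0613 FPKM. Il1rl1, the receptor for the Il33 product, stood at 4.70, 4.56 and 3.60 FPKM. The remaining 7, Il33 and the 4 interleukin 36 genes among them, stayed below 1 FPKM; Il36a had 0, 50 and 31 counts. With harmine plus LPS against LPS, 0 of the 3 passed 2-fold (median 0.30).

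Of 20 signalling genes downstream of the receptor, 18 could be compared. With LPS 4 passed 2-fold, all of them higher (median 0.16 log2), or 4 of 18 beside 5.79% of all genes. Nfkbia, the inhibitor of NF-kB, stood at 38.1, 338 and 346 FPKM, so the harmine plus LPS level was not below that of LPS. Irak2, a kinase that sustains the signal, stood at 8.28, 35.1 and 25.5 FPKM, and Peli1, a ubiquitin ligase, at 2.72, 13.2 and 8.86 FPKM. Irak3, which restrains IRAK signalling, stood at 2.35, 8.62 and 3.18 FPKM. It was the 1 of 18 that lay past 2-fold below its LPS level when harmine was added (-1.20 log2), and 0 lay above (median 0.00 log2). The adaptor Myd88 stood at 34.8, 67.0 and 53.6 FPKM, and Tab1, a subunit of the TAK1 kinase complex, at 12.0, 5.63 and 8.28 FPKM.

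Of 16 genes for processing and release of the cytokines, 13 were compared, with 2 higher and 1 lower with LPS (median 0.02 log2), or 2 and 1 of 13 beside 5.79% and 7.21% of all genes. Nlrp3, the inflammasome sensor, stood at 17.02, 177 and 82.6 FPKM, and Casp4, the receptor caspase for cytosolic LPS, at 1.96, 15.6 and 8.05 FPKM. P2rx7, the ATP-gated channel that can trigger NLRP3, stood at 5.48, 1.42 and 1.34 FPKM and was the lower gene. With harmine plus LPS against LPS, 2 of 13 passed 2-fold, both of them lower (median -0.05 log2). They were Nlrp3 (-1.09 log2) and Casp1 (-1.23 log2), whose product cleaves the interleukin 1 beta and 18 precursors, at 13.6, 19.4 and 7.68 FPKM. Nek7, a partner of NLRP3, stood at 9.60, 5.44 and 6.80 FPKM, and the calpain gene Capn2 at 14.9, 7.02 and 12.6 FPKM. Below 1 FPKM in every library, and so not compared, were Nlrc4, Mefv and Pycard. Pycard, the inflammasome adaptor, stood at 0.0924, 0.527 and 0.680 FPKM.

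Of 15 regulators of interleukin 1 transcription and mRNA decay, 7 passed 2-fold with LPS, all of them higher (median 0.69 log2), beside 5.79% of all genes. With harmine plus LPS against LPS 0 of 15 passed 2-fold in either direction (median -0.09 log2). Of all genes, 0.664% were that much higher and 0.935% lower. The NF-kB subunits Nfkb1 and Rel stood at 13.6, 75.1 and 66.7 FPKM and at 6.65, 44.6 and 49.3 FPKM. Nfkbiz, an NF-kB cofactor for secondary response genes, stood at 1.84, 78.9 and 56.6 FPKM. Cebpd, a C/EBP factor, stood at 3.25, 17.02 and 12.7 FPKM. Zfp36 and Zc3h12a, which encode proteins that promote decay of cytokine mRNAs, stood at 17.97, 148 and 124.5 FPKM and at 5.35, 55.7 and 35.3 FPKM.

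**Figure D5:**
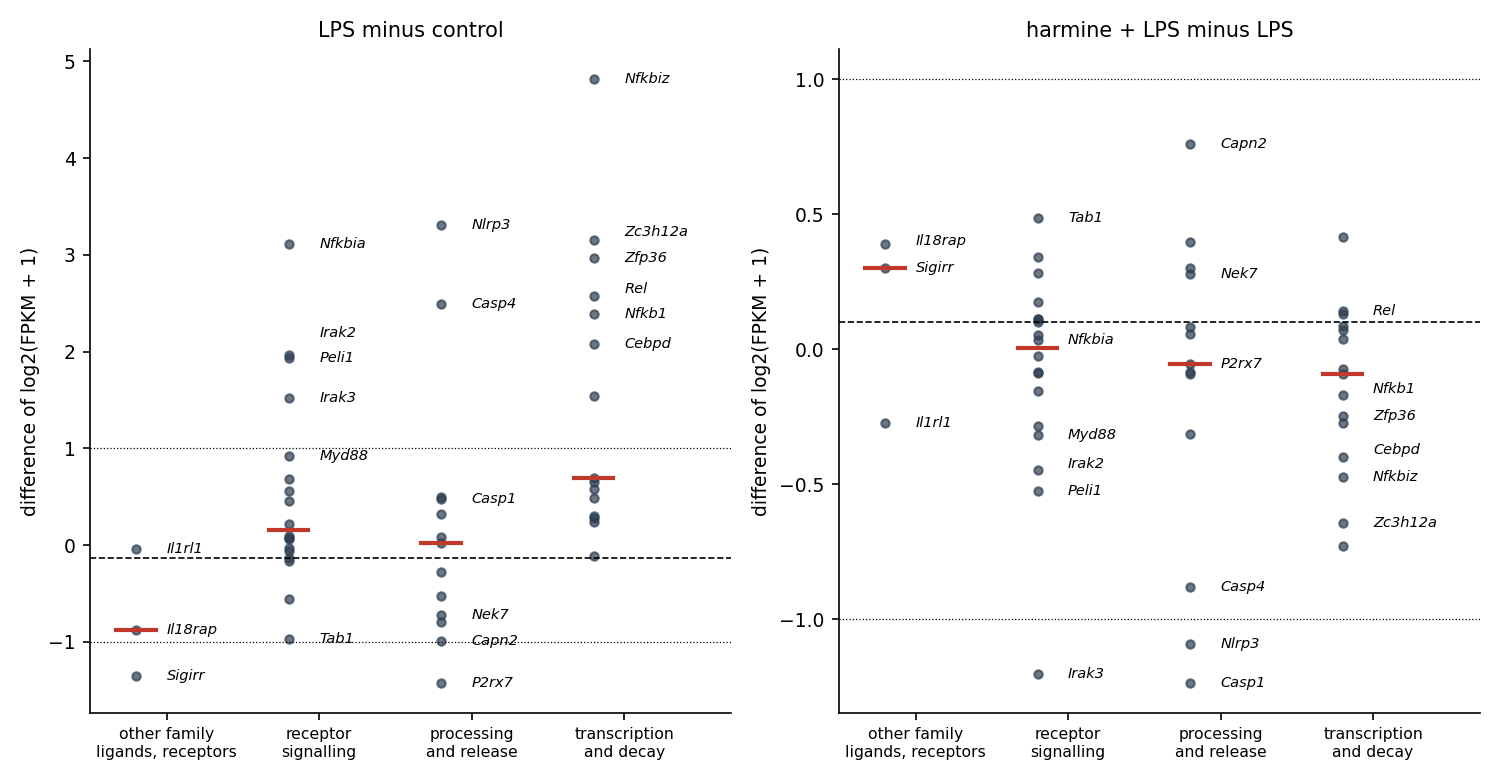
Difference of log2(FPKM + 1) for the compared genes of 4 lists, LPS minus control (left) and harmine plus LPS minus LPS (right). Each point is a gene, red bars are list medians, the dashed line is the median of all genes and dotted lines mark 2-fold; labelled genes are those named in the text, and some labels are shifted upwards. Nfkbiz, Nlrp3, Zc3h12a and Nfkbia lead on the left, and Casp1, Irak3 and Nlrp3 are below the 2-fold line on the right.

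Several family genes are also expressed by epithelia and neutrophils. The 10 macrophage markers summed to 2141, 2021 and 1586 FPKM in control, LPS and harmine plus LPS, and single markers went both ways. From control to LPS, Csf1r was lower (259 and 65.8 FPKM) and Cd14 higher (231 and 813), with others in each direction. From LPS to harmine plus LPS most were lower: Lyz2 (525 and 283 FPKM), Cd14 (813 and 476), Adgre1 (16.4 and 9.88) and Fcgr1 (13.8 and 5.67). Itgam (13.0 and 7.86), Ptprc (9.58 and 6.53) and Mertk (0.206 and 0.129) were lower too. Cd68 was higher (444 and 602), and Csf1r (65.8 and 68.2) and Spi1 (121 and 127) were little different. The 7 epithelial markers in the table summed to 4.46, 18.2 and 23.3 FPKM, and 1, 4 and 6 of them reached 1 FPKM. Sftpb, of the lung epithelium, was at 0 except for 0.0130 FPKM with LPS. Krt14 stood at 0.249, 3.37 and 2.33 and Krt5 at 0.0410, 1.84 and 1.84 FPKM. The other 4 were highest with harmine plus LPS, among them Krt8 at 2.61, 8.09 and 10.5 and Krt18 at 0.281, 0.9301 and 3.06 FPKM. Against control, these markers except Sftpb were thus higher in the same libraries as Il1a, Il1b, Il1rn and Il18. From LPS to harmine plus LPS, Il1a, Il1b, Il1rn and Il18 had lower FPKM, as did Krt14. Krt5 was little different there, and Epcam, Cdh1, Krt8 and Krt18 were higher. The 8 fibroblast and endothelial markers summed to 2.05, 10.3 and 10.1 FPKM, with 0, 4 and 4 of them at 1 FPKM or more. The part of these shifts in the results was not tested. The 7 neutrophil markers summed to 0.0584, 0.768 and 1.16 FPKM, each below 1 FPKM in every library, and 6, 4 and 2 of them were at 0, Ly6g and Elane in both control and LPS. The 7 lymphocyte markers summed to at most 0.658 FPKM.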

How the data were processed

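RNA-seq of 3 RAW264.7 libraries, 1 per group, was read from 1 deposited table. Per the file headers it gives FPKM values and, deposited without normalization, counts per gene for each library. Per the submitters' processing notes, the build was mm10 and the tools included HISAT2 2.2.1, StringTie 2.1.6 and cutadapt 1.9, with edgeR and DESeq2. Their roles, any filters and the use of strand are not given, and no count model was fitted here. FPKM per deposited count differed between LPS and control by a constant factor (SD 0.00583 log2 over 12036 genes above 50 counts). A count of 4 was commoner than one of 3 in every library, so for counting intervals 4 deposited counts stood for 1 read pair, rounded. In control, LPS and harmine plus LPS, 1072, 1096 and 994 genes had a count of 4, and 566, 573 and 619 a count of 3. Counts of 3, and others that are not multiples of 4, are not whole read pairs at this unit. This unit is inferred from the values, and fewer counts per read pair would make every counting interval narrower.

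Genes reaching 1 FPKM in any library were compared by log2(FPKM + 1), which understates differences of low genes, and counted at 2-fold; ratios are of plain FPKM. Intervals are 95% exact binomial or Poisson (Python 3.11.15, SciPy 1.17.1). The binomial ones were tried on simulated Poisson counts drawn at the same unit. That trial cannot check the unit, duplicate reads or variation between libraries. A count of 0 was set to 3 read pairs for folds over that floor. The members, lists and motifs were chosen with earlier results of these data known. Named genes were the 8 members and up to 6 per list with the largest absolute difference among those with at least 5 FPKM. All further family genes at 1 FPKM, the 3 of nearest pattern per member and genes within 100 kb were also named. Il18r1, Il33, Il36a, Nlrc4, Mefv, Pycard and markers were named after their values were seen. RefSeq promoter windows were matched for all 8 members by symbol; protein sequences were not used here. Listed interleukin 36 genes were matched through RefSeq synonyms. GENCODE M21 gave the same start and end as the table for 7 of 8 members. Alternatives were no filter, a filter of 5 FPKM, other pseudocounts (0.1 and 5 FPKM), median-of-ratios, upper-quartile and TPM rescaling, CPM from the deposited counts, and a 1.5-fold threshold.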

Additional observations from a re-analysis of the deposited data

How the results depend on the processing

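Of 138 log2 differences of the 6 compared genes recomputed under the alternatives, 0 changed sign, 103 stayed within the half-width of their counting interval and 35 moved beyond it. Filters leave a gene's difference as it was, so those values count among the 103 by construction. Pseudocounts cannot change a sign, so only the rescalings and CPM could have done so. The LPS minus control difference ranged from 6.39 to 9.02 for Il1b, 4.60 to 8.23 for Il1a and 2.95 to 4.88 for Il1rn, and harmine plus LPS minus LPS from -1.25 to -1.10, -0.69 to -0.53 and -1.09 to -0.85. Members 2-fold or more higher with LPS, 4 as reported, were 7 by CPM from the deposited counts, with Il1r1 among them from a control count of 0. They were 6 with a pseudocount of 0.1 FPKM, by TPM and at 1.5-fold, and 3 with a pseudocount of 5 FPKM, where Il18 stood at 0.80 log2. Members lower than LPS when harmine was added were 2 in place of 1 after median-of-ratios or upper-quartile rescaling and at 1.5-fold, Il1rn being the second; members higher than control were 5 in place of 3 with a pseudocount of 0.1 FPKM and at 1.5-fold. Those added against control were Il18 and Il1rap, at 1.08 and 1.06 log2 with that pseudocount and at 0.98 and 0.64 log2 as reported.

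Counts over all genes moved more. For LPS against control, 706 higher and 880 lower became 1236 and 1344 by CPM, 1068 and 1482 with a pseudocount of 0.1 FPKM, 347 and 291 with 5 FPKM, 1327 and 1405 by TPM, and 1426 and 2356 at 1.5-fold. For harmine plus LPS against LPS, 81 and 114 became 350 and 226 with 0.1 FPKM, 15 and 38 with 5 FPKM, 345 and 254 by TPM, and 646 and 408 at 1.5-fold; higher genes were 194 by CPM and 47 with a filter of 5 FPKM. Higher genes made up 41.5% of these calls as deposited, 25% after median-of-ratios and 25.1% after upper-quartile rescaling, 57.6% by TPM, 54.6% by CPM, and for LPS against control 44.5% as deposited and 55.0% after upper-quartile rescaling. For harmine plus LPS against control, 627 and 593 became 1068 and 975 with 0.1 FPKM, 296 and 188 with 5 FPKM, 1359 and 959 by TPM, and 1500 and 1652 at 1.5-fold, with 1271 higher by CPM. Ratios within a library taken from counts without length correction put Il1rn at 4.87, 0.267 and 0.291 of Il1b in control, LPS and harmine plus LPS. No ratio of Il1r2 to Il1r1 was computed, since Il1r2 was under the floor in each library. No paired analysis was possible because each group holds 1 library. Depth limits Il1r1, Il1r2 and the control values of Il1a and Il1b.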
